A study of Mus musculus with 15 samples.

Results

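The 10 chemokine receptor genes described here are Ccr2, Ccr4, Ccr6, Ccr7, Ccr8, Ccr9, Cxcr3, Cxcr4, Cxcr5 and Cxcr6. They were taken by symbol from a table of 17594 genes, in which each of the 10 had a row, whatever its values. RNA was sequenced from CD4+ T cells sorted from mouse spleens on the C57BL/6 background. The knockout animals came from a cross of mice with a conditional allele of Hpgd, which encodes an enzyme that inactivates prostaglandin E2, to mice carrying FOXP3-Cre-YFP, a Cre recombinase tied to the regulatory T cell gene Foxp3. The control animals are labelled wild-type, and the labels do not say whether they carried the Cre. The 4 groups were regulatory T cells (Treg) of controls (Treg WT, 4 libraries), Treg of knockouts (Treg KO, 4 libraries), conventional T cells (Tconv) of controls (Tconv WT, 3 libraries) and Tconv of knockouts (Tconv KO, 4 libraries). Age and sex were not in the labels, and neither was the number of animals behind a library, so the p-values measure the spread between these libraries, which may be technical.

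The labelled cell types were checked against their markers. The T cell list (Cd3e, Cd3d, Cd3g, Cd4, Cd5 and Lat) summed to between 18689 and 25991 normalized reads in every library, and Foxp3 lay between 3314 and 4800 in the Treg libraries and between 14.4 and 69.5 in the Tconv libraries. The targeted gene gave no check of the labels, since Hpgd had 1 read over the 7 WT libraries and 0 reads over the 8 KO libraries. The WT libraries held the Y-linked Ddx3y at 1154 to 1520 and Xist at 0 to 5.52, and the KO libraries held 0 reads of Ddx3y and Xist at 8644 to 19007, so every comparison of KO with WT is also one of female with male, and the genotype and the sex cannot be told apart. Depth ranged from 6.43 to 11.1 M reads (M, mega) in the WT libraries and from 2.64 to 10.3 M reads in the KO libraries, and 1 read was worth 0.527 to 2.15 of the normalized reads used below. The proliferation gene Mki67 lay between 135 and 333 in the WT libraries and between 345 and 1017 in the KO libraries, and its part in the receptor values was not tested.

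Chemokine receptors are membrane-spanning proteins coupled to inhibitory G proteins, and they steer a T cell along gradients of small secreted ligands. Ccr7 and Cxcr5 place T cells in the T cell zone and the follicle of lymphoid organs, and Cxcr4 reads the stromal ligand Cxcl12. Receptors such as Ccr4, Ccr6, Ccr8, Cxcr3 and Cxcr6 are carried mostly by effector and memory cells and by activated Treg, and are known for guiding them to skin, mucosa, liver and inflamed tissue.

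The sequences just before a RefSeq transcription start of Ccr4, Ccr8 and Cxcr6 are shown. These were taken because Ccr4 and Cxcr6 were higher in Treg KO than in Treg WT, and Ccr8 and Cxcr6 differed most between the cell types. RefSeq (GRCm38.p6) gave a promoter window for 8 of the 10 receptors, and bases inside annotated exons were cut off. The Ccr4 window is chr9:114496563-114496794 on the minus strand, the Ccr8 window is chr9:120091883-120092113 on the plus strand and the Cxcr6 window is chr9:123806227-123806474 on the plus strand. The Ccr4 window lies inside the GENCODE bounds of the gene given below, so it precedes a start within the gene and not its outermost one. Each is written 5′ to 3′ in the direction of transcription, and capitals mark the motif matches named below.
Ccr4: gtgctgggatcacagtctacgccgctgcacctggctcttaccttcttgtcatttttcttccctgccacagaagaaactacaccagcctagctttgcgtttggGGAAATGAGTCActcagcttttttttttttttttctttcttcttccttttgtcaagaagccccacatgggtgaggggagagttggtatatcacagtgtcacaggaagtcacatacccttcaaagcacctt
Ccr8: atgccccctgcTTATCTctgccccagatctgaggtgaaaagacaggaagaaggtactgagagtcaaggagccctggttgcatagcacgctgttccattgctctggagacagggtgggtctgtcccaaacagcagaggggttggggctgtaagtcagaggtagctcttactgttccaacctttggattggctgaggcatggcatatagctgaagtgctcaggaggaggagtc
Cxcr6: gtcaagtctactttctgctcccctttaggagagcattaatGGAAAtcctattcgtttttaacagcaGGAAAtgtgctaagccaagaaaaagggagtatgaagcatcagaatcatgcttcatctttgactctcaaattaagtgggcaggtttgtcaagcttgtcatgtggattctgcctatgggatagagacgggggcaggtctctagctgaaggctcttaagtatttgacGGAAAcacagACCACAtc
Both strands were searched for the letters of the forkhead core (TGTTTAC), of GATA factors (AGATAA), of Runx factors (TGTGGT), of AP-1 (TGANTCA), of T-box factors (GGTGTG) and of NFAT (GGAAA). Counted from the 5′ end of each window, the Ccr4 window held an NFAT match starting at base 103 that adjoins an AP-1 match starting at base 108. The Ccr8 window held a GATA match on the opposite strand at base 12, and the Cxcr6 window held NFAT matches at bases 41, 67 and 231 and a Runx match on the opposite strand at base 241. Of 32851 RefSeq promoter windows of 250 bases, 55.6% held the NFAT letters, 14% the Runx letters, 9.99% the GATA letters and 6.75% the AP-1 letters. These matches describe the sequence and are not binding sites, and the shares refer to windows of 250 bases while the 3 windows shown are shorter.

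In the reference annotation (GENCODE vM21, GRCm38), 6 of the 10 receptor genes lie on chromosome 9. Ccr9 (chr9:123678439-123784330), Cxcr6 (chr9:123806475-123811760) and Ccr2 (chr9:124101950-124113557) stand near each other on the plus strand, while Ccr4 (chr9:114490316-114504916, minus strand) and Ccr8 (chr9:120092114-120094906, plus strand) lie farther off. Cxcr3 lies on the X chromosome (chrX:101731535-101734269, minus strand). Of the 5679 stretches of 50 bases in the longest Ccr2 transcript, 129 (2.27%) were also found in transcripts of other genes. How such reads were assigned was not stated, nor whether strand was used in counting, which bears on Cxcr5 (2.18% of its stretches shared with Bcl9l, which overlaps it) and on Ccr9, which overlaps other genes. The share was 1.60% for Ccr4, and 0 for Ccr6, Ccr7, Ccr8, Cxcr3, Cxcr4 and Cxcr6.

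**Figure D1:**
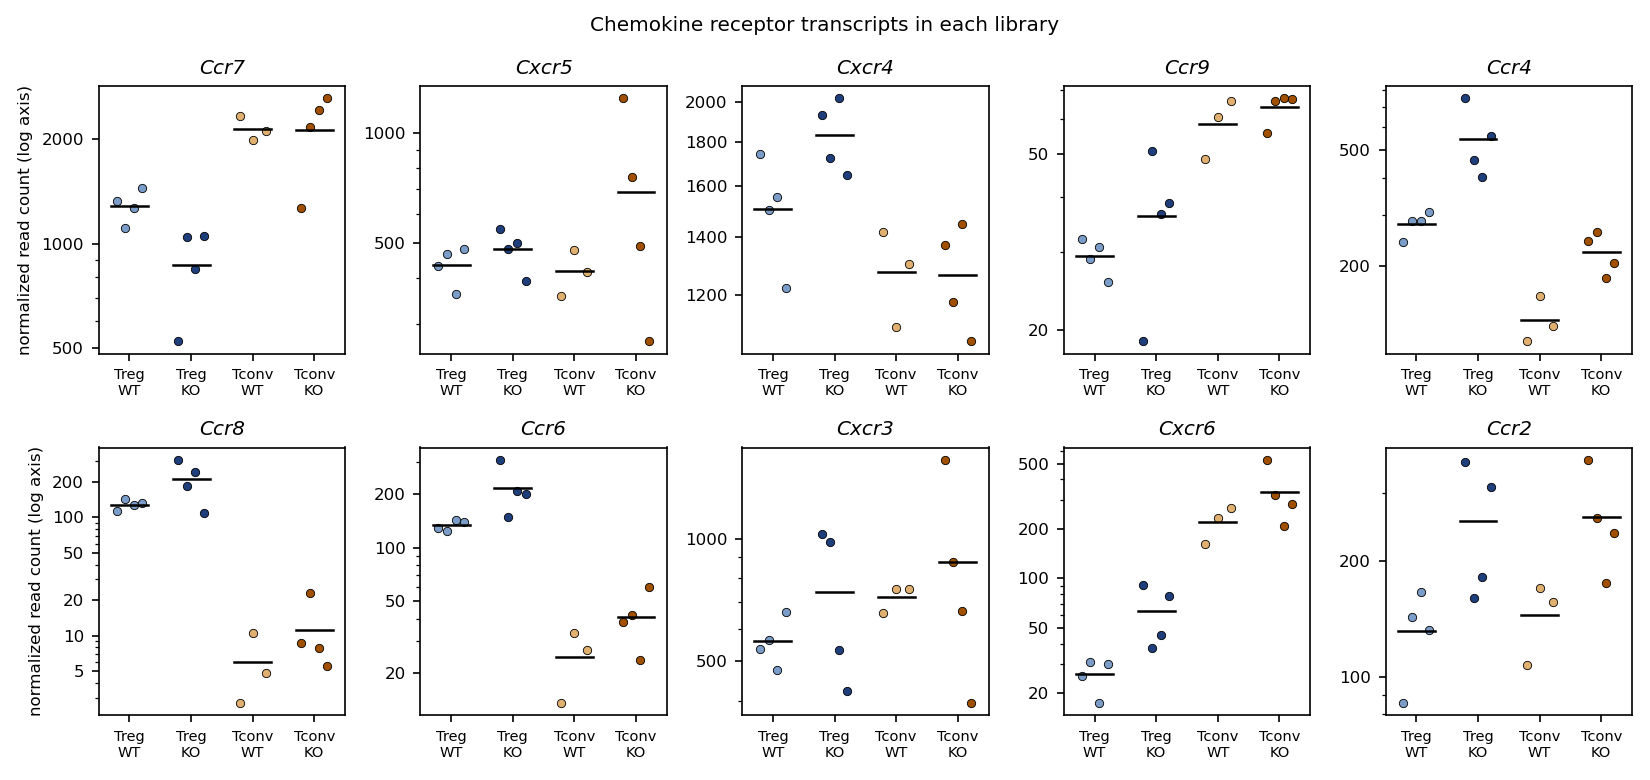
Normalized read count of each of the 10 receptors (log axis, scale differing between panels) in each of the 15 libraries, with 1 point per library and a bar at the group mean. Ccr4 and Cxcr6 of the Treg KO libraries sit above all Treg WT libraries, Ccr7 of the Treg KO libraries sits below them, and Ccr8 and Ccr6 are high in Treg libraries of both genotypes.

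Ccr7 and Cxcr4 had the highest mean levels per kilobase of transcript. In Treg WT, Cxcr4 stood at 834 normalized reads per kilobase and Ccr7 at 650, with overlapping values, followed by Cxcr3 at 323 and Cxcr5 at 153. In Tconv WT, the order was Ccr7 at 1082, Cxcr4 at 706, Cxcr3 at 416 and Cxcr5 at 147, with no overlap between neighbours in that order. The other receptors lay between 5.66 (Ccr9) and 109 (Ccr8) in Treg WT and between 5.12 (Ccr8) and 116 (Cxcr6) in Tconv WT. In Treg KO, Ccr7 at 439 overlapped Cxcr3 at 428, and in Tconv KO, Cxcr4 at 701 overlapped Cxcr3 at 505. Lengths are those of the longest annotated transcript of each gene.

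Ccr7, the receptor for Ccl19 and Ccl21, was lower in Treg than in Tconv in both genotypes, and had lower values in Treg KO than in Treg WT that missed the threshold. Its normalized read counts were 1327, 1110, 1263 and 1443 in Treg WT, 524, 1048, 847 and 1054 in Treg KO, 2334, 1981 and 2104 in Tconv WT, and 1264, 2162, 2423 and 2620 in Tconv KO. Every Treg library lay below every Tconv library of its genotype, and the Treg KO libraries lay below the Treg WT libraries. In WT the difference of Treg from Tconv was −0.74 ± 0.24 (SE) on the log2 scale (adjusted p = 0.044), and in KO it was −1.29 ± 0.22 (adjusted p = 4.5e-04). Treg KO differed from Treg WT by −0.61 ± 0.22 (adjusted p = 0.06), and this passed the threshold in 6 of 27 alternative fits (other tools and settings, and each library left out), among them DESeq2 (adjusted p = 0.04) and those without Treg KO replicate 2 (adjusted p = 0.039) or 4 (adjusted p = 0.041) or Tconv KO replicate 1 (adjusted p = 0.02). The WT difference of Treg from Tconv in turn passed in 18 of the 27 alternative fits. It no longer passed without the level filter (adjusted p = 0.06), without any 1 of the 7 WT libraries (adjusted p from 0.058 to 0.15) or without Tconv KO replicate 2 (adjusted p = 0.056).

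Cxcr5, the follicular receptor for Cxcl13, did not pass the threshold in any comparison. It stood at 433, 467, 361 and 480 in Treg WT, at 547, 482, 498 and 392 in Treg KO, at 358, 478 and 416 in Tconv WT, and at 1245, 758, 491 and 268 in Tconv KO. The 4 Tconv KO libraries spread wider than those of any other group, with both the highest and the lowest value of the 15. Tconv KO differed from Tconv WT by 0.52 ± 0.34 (adjusted p = 0.56). Treg KO differed from Tconv KO by −0.32 ± 0.31 (adjusted p = 0.47), and by −0.70 (adjusted p = 0.032) without Tconv KO replicate 4.

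Cxcr4 was higher in Treg than in Tconv of the knockouts. Its values were 1743, 1502, 1555 and 1221 in Treg WT and 1931, 1724, 2019 and 1646 in Treg KO, which overlap. Treg KO differed from Treg WT by 0.29 ± 0.12 (adjusted p = 0.098), which passed with the length correction (0.40, adjusted p = 0.042). In Tconv the values were 1418, 1101 and 1303 in WT and 1370, 1179, 1449 and 1062 in KO. The difference of Treg from Tconv was 0.54 ± 0.12 in KO (adjusted p = 0.0033) and 0.24 ± 0.13 in WT (adjusted p = 0.25, and 0.012 with library weights), and the test of the difference between them gave 0.30 ± 0.18 (adjusted p = 0.65). Ccr9, the receptor for the intestinal and thymic ligand Ccl25, was low in every library. It lay between 25.7 and 32.2 in Treg WT, 18.9 and 50.9 in Treg KO, 48.8 and 66.0 in Tconv WT, and 55.9 and 67.0 in Tconv KO. All Tconv libraries of a genotype were above its Treg libraries, with a log2 difference of Treg from Tconv of −0.96 ± 0.25 in WT (adjusted p = 0.013) and −0.88 ± 0.23 in KO (adjusted p = 0.0096). Leaving out Tconv WT replicate 2 or replicate 3 ended the WT call (adjusted p = 0.053 and 0.066), and a fit of the KO groups alone ended the KO call (adjusted p = 0.062). Treg KO differed from Treg WT by 0.22 ± 0.23 (adjusted p = 0.53), and by 0.49 (adjusted p = 0.046) without replicate 1 of Treg KO and of Tconv KO, a setting chosen after seeing the data.

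Ccr8, Ccr6 and Ccr4 were the receptors carried at a higher level by Treg in both genotypes. Ccr8, the receptor for Ccl1 and a known mark of activated tissue Treg, had 112, 143, 127 and 132 normalized reads in Treg WT and 308, 184, 243 and 110 in Treg KO. In Tconv it had 2.71, 10.5 and 4.81 in WT and 8.74, 22.8, 7.89 and 5.56 in KO, close to the value of a few reads. The difference of Treg from Tconv was 4.36 ± 0.44 in WT (adjusted p = 4.1e-06) and 4.20 ± 0.40 in KO (adjusted p = 2.0e-06). Ccr8 would not have passed the level filter without Treg libraries, so higher values in Treg were favoured by that step. Both differences passed in all 27 alternative fits, among them the fit without the level filter. Treg KO and Treg WT overlapped for Ccr8, with a difference of 0.62 ± 0.40 (adjusted p = 0.28).

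Ccr6, the receptor for Ccl20, stood at 129, 123, 144 and 139 in Treg WT and at 310, 148, 207 and 199 in Treg KO. It stood at 13.6, 33.2 and 26.8 in Tconv WT and at 38.5, 42.2, 23.7 and 60.6 in Tconv KO. Treg exceeded Tconv by 2.49 ± 0.31 in WT (adjusted p = 4.1e-05) and by 2.39 ± 0.29 in KO (adjusted p = 1.9e-05). The Treg KO libraries all lay above the Treg WT libraries, but the difference of 0.64 ± 0.29 did not pass (adjusted p = 0.13). It passed with DESeq2 (adjusted p = 0.035) and in a fit of these groups alone (adjusted p = 0.0499).

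Ccr4, the receptor for Ccl17 and Ccl22 that marks skin-homing and Th2-type cells, rose in Treg KO. The Treg WT libraries had 241, 286, 285 and 306 normalized reads and the Treg KO libraries had 753, 462, 403 and 556, a mean of 279 ± 27.2 (SD, n = 4) against 544 ± 153 (SD, n = 4). No KO library reached down to the WT range, and the difference was 0.92 ± 0.17 (adjusted p = 0.0028). It passed in all 27 alternative fits, at 0.75 to 1.05 on the log2 scale. In Tconv it had 110, 158 and 124 in WT and 243, 262, 181 and 204 in KO, again without overlap, and the difference of 0.76 ± 0.19 missed the threshold (adjusted p = 0.094) while it passed with DESeq2 (adjusted p = 0.017), with library weights (adjusted p = 0.035) and without Treg KO replicate 1 (adjusted p = 0.036) or 3 (adjusted p = 0.034). Treg exceeded Tconv by 1.10 ± 0.19 in WT (adjusted p = 6.0e-04) and by 1.26 ± 0.17 in KO (adjusted p = 6.2e-05).

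Cxcr6, the receptor for the membrane-bound ligand Cxcl16, was low in Treg and high in Tconv, and it rose in Treg KO. Treg WT had 25.4, 31.0, 17.4 and 30.1 normalized reads, Treg KO had 91.4, 37.6, 45.2 and 77.6, Tconv WT had 163, 232 and 267, and Tconv KO had 528, 320, 207 and 285. The Treg KO libraries lay above the Treg WT libraries and still below all Tconv libraries. The knockout difference in Treg was 1.18 ± 0.31 (adjusted p = 0.015), which passed in all 27 alternative fits, at an adjusted p of up to 0.047. Treg differed from Tconv by −3.04 ± 0.33 in WT (adjusted p = 9.9e-06) and by −2.40 ± 0.31 in KO (adjusted p = 3.1e-05). In Tconv the knockout difference was 0.55 ± 0.33, with overlapping groups (adjusted p = 0.52).

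Ccr2, the receptor for Ccl2, rose in Treg KO with a call that ended when any 1 of 5 libraries was left out, and did not pass between the cell types. It had 85.7, 143, 166 and 132 normalized reads in Treg WT, 360, 160, 181 and 310 in Treg KO, 108, 170 and 157 in Tconv WT, and 365, 259, 175 and 236 in Tconv KO. The lowest Treg KO library lay within the Treg WT range. The difference was 0.89 ± 0.28 (adjusted p = 0.035), and it passed in 18 of the 27 alternative fits. It no longer passed without Treg WT replicate 1 (0.70, adjusted p = 0.11), 2 (adjusted p = 0.055) or 4 (adjusted p = 0.07), or without Treg KO replicate 1 (0.70, adjusted p = 0.091) or 4 (0.77, adjusted p = 0.08). It also no longer passed with the GC correction (0.71, adjusted p = 0.11), with the length correction (0.81, adjusted p = 0.054) or in a fit of the Treg groups alone (adjusted p = 0.058). In Tconv the difference was 0.81 ± 0.30 (adjusted p = 0.3), although no Tconv KO library reached down to the Tconv WT range. Treg differed from Tconv by −0.15 ± 0.30 in WT, with a 95% interval from −0.79 to 0.50 (adjusted p = 0.81).

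Cxcr3, the receptor for the interferon-induced ligands Cxcl9 and Cxcl10 and a mark of Th1-type cells, varied more between KO libraries (SD of 307 in Treg and 498 in Tconv) than between WT libraries (SD of 77.4 and 55.2). It had 536, 565, 476 and 661 normalized reads in Treg WT, 1026, 983, 534 and 424 in Treg KO, 656, 750 and 753 in Tconv WT, and 1561, 876, 666 and 396 in Tconv KO. KO replicates 1 and 2 of each cell type lay above their WT range and KO replicate 4 lay below it; the replicate numbers follow accession order, and no label pairs the cell types. The knockout difference was 0.31 ± 0.34 in Treg (adjusted p = 0.52) and 0.11 ± 0.36 in Tconv (adjusted p = 0.93). Treg WT differed from Tconv WT by −0.37 ± 0.36 (adjusted p = 0.56), which passed in a fit of the WT groups alone (adjusted p = 0.0089). In the same Tconv KO libraries the CD8 and NK cell marker list, led by Nkg7, summed to 2099, 1287, 887 and 806, against 813 to 1008 in Tconv WT. From Tconv WT to Tconv KO the mean of Nkg7 went from 316 to 455 and that of Eomes from 169 to 364. Prf1 went from 259 to 257, Klrb1c from 72.0 to 55.2, Cd8a from 0.703 to 0.917 and Ncr1 from 0.176 to 0.139. Cd8b1 (59.4 to 67.4), Klrd1 (47.4 to 54.1) and Gzma (5.61 to 15.8) had higher means in Tconv KO. The part of these markers in the Cxcr3 values was not tested.

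**Figure D2:**
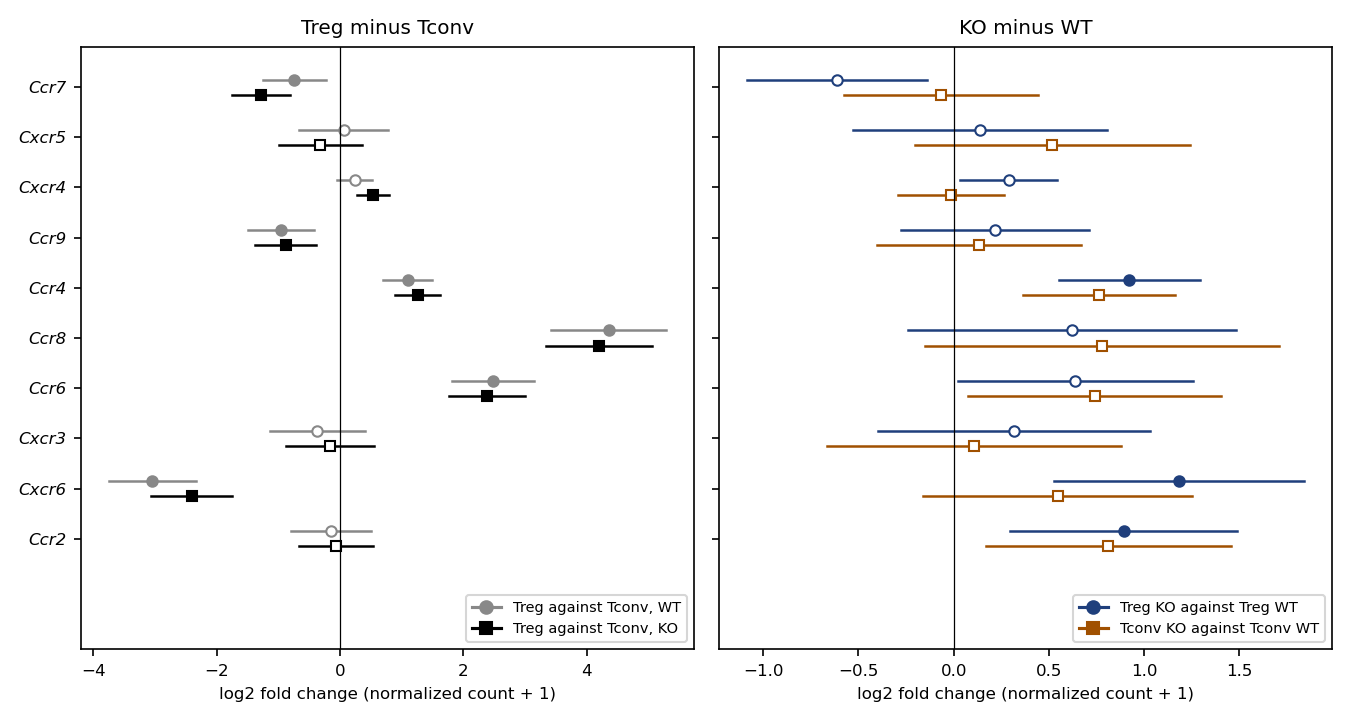
Log2 fold change of each receptor in the knockout and cell type comparisons (limma, log2 of normalized count + 1), with lines for the 95% confidence interval and filled points where the adjusted p is under 0.05. Ccr4, Cxcr6 and Ccr2 are filled in Treg KO against Treg WT, and no receptor is filled in Tconv KO against Tconv WT.

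Counted together, 3 of the 10 receptors rose in Treg KO against Treg WT (Ccr2, Ccr4 and Cxcr6), beside 10.4% of all 11314 genes tested that rose, 11.1% that fell and 21.5% that changed in either direction. Of the 10, 0 fell by limma, where 1 (Ccr7) was lower at an unadjusted p under 0.05, and 0 fell with edgeR and 1 (Ccr7) with DESeq2. The median of the 10 log2 fold changes was 0.47 against −0.00 over all genes tested, and 9 of the 10 were positive. In Tconv KO against Tconv WT, 0 of the 10 passed by limma, beside 0.292% of all genes that rose, 0.389% that fell and 0.681% in either direction. At an unadjusted p under 0.05 there were 3 (Ccr2, Ccr4 and Ccr6), all higher, with 0 by edgeR and 1 (Ccr4) by DESeq2. The median of the 10 log2 fold changes in Tconv was 0.53 against 0.00 over all genes.

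In Treg WT against Tconv WT, 3 receptors were higher (Ccr4, Ccr6 and Ccr8) and 3 lower (Ccr7, Ccr9 and Cxcr6), beside 10.0% and 8.06% of all genes (18.1% in either direction). In Treg KO against Tconv KO, 4 were higher (these 3 and Cxcr4) and the same 3 were lower, beside 15.8% and 15.6% of all genes (31.4% in either direction). The 2 knockout comparisons share their groups with these 2 cell type comparisons, so the 4 sets of values are not independent. The interaction, which tests whether the knockout difference differed between the cell types, passed for 0 of the 10 receptors by limma, for 0 at an unadjusted p under 0.05, and for 0 by edgeR and 0 by DESeq2, beside 0.150% of all genes (0.0354% higher and 0.115% lower). Its values ran from −0.55 for Ccr7 (adjusted p = 0.66) to 0.64 for Cxcr6 (adjusted p = 0.73). The difference of KO from WT is therefore not shown to differ between Treg and Tconv for any receptor. Ccr2, Ccr4 and Cxcr6 nevertheless passed in Treg and not in Tconv.

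**Figure D3:**
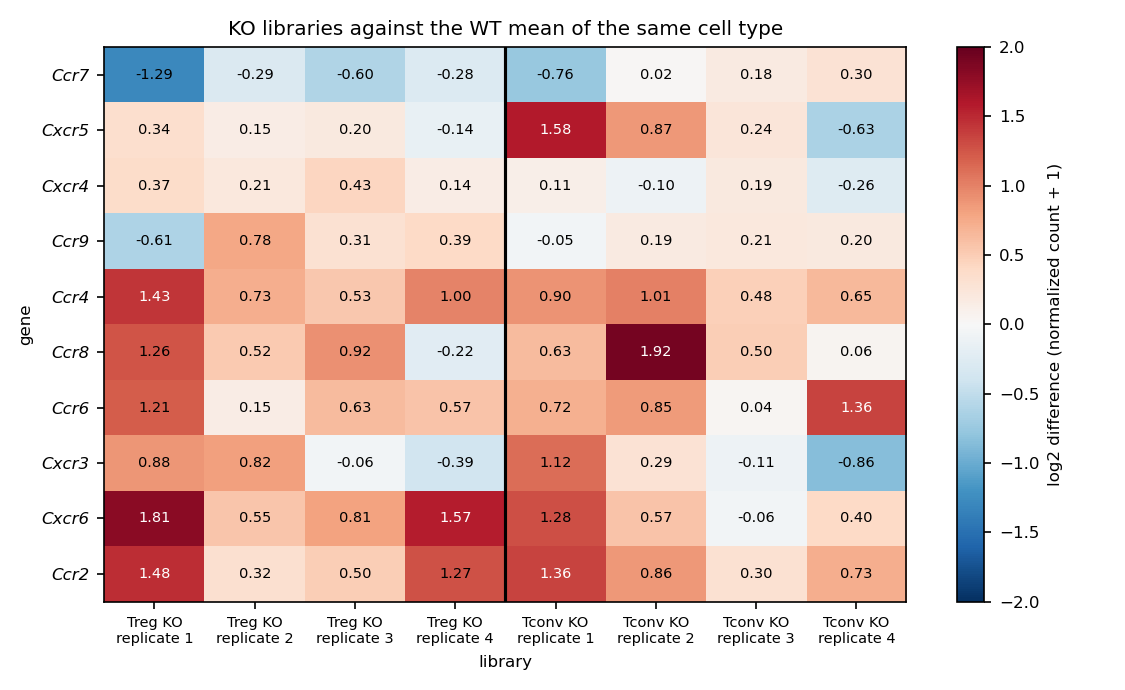
Log2 difference of each KO library from the mean of the WT libraries of its cell type for each receptor, with the colour scale ending at −2 and 2. The first Treg KO and the first Tconv KO library carry the deepest colours for several receptors, such as 1.81 for Cxcr6 in the first Treg KO library and 1.58 for Cxcr5 in the first Tconv KO library.

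The KO libraries varied more than the WT libraries. The SD of log2 values was larger in Treg KO than in Treg WT for 9 of the 10 receptors (the other was Cxcr4), beside 82.0% of all genes, with a median of 0.52 against 0.17. In Tconv it was larger in KO for 6 of the 10, beside 77.0% of all genes. Treg KO replicate 1 held the highest Treg KO value for 7 of the 10 receptors and the lowest for Ccr7 and Ccr9, beside 25.9% and 23.5% of all genes. Tconv KO replicate 1 held the highest Tconv KO value for 4 (Ccr2, Cxcr3, Cxcr5 and Cxcr6) and the lowest for Ccr7 and Ccr9, beside 33.5% and 31.8% of all genes. Without both of these libraries, Ccr4 and Cxcr6 still passed in Treg and Ccr2 did not (adjusted p = 0.062).

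Of 18 further chemokine receptors and related receptors, 14 were in the table and 6 passed the level filter. In Treg KO against Treg WT, 3 of the 6 rose, beside 10.4% of all genes tested. These were Ccr3, from 7.59 to 12.4 in Treg WT and from 19.4 to 52.2 in Treg KO (1.68, adjusted p = 0.025), Cx3cr1 (1.88, adjusted p = 0.014) and Xcr1 (1.70, adjusted p = 0.046). The last 2 rest on few reads, since Cx3cr1 had 6 reads over the 4 Treg WT libraries and 14 over the 4 Treg KO libraries, and Xcr1 had 14 and 30. Cx3cr1 passed the level filter through Tconv libraries alone, and its rise did not pass the threshold with edgeR. Xcr1 and Ccr10 passed the level filter through KO libraries alone. Ccr3 would not have passed it without KO libraries, with a median of 9.06 in Treg WT and a maximum of 2.71 in Tconv WT. A rise in KO was therefore favoured by the choice of Ccr3, Xcr1 and Ccr10, of which Ccr10 was not called. The count of 3 of the 6 includes Ccr3 and Xcr1 and is not a like measure to the 10.4%. In Tconv KO against Tconv WT, 0 of the 6 passed by limma, beside 0.681% of all genes. There were 2 (Ccr3 and Cx3cr1) at an unadjusted p under 0.05, with 0 by edgeR and 0 by DESeq2.

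Between the cell types of WT animals, Ccrl2, a receptor that binds without signalling in the usual way, was higher in Treg (42.5 to 49.3 against 9.94 to 14.2 in Tconv, a difference of 1.88, adjusted p = 9.9e-05), as was Ccr3 (1.71, adjusted p = 0.034). Cx3cr1, the receptor for the membrane-bound ligand Cx3cl1, was lower in Treg (0 to 2.91 against 11.6 to 31.6, a difference of −3.49, adjusted p = 1.7e-04). Cxcr1 was lower in Treg too, with 0 reads in Treg WT and 70 reads in Tconv WT. Relative to depth this is at least 29.6-fold higher in Tconv, with Treg WT set at a floor of 3 reads over the group. Cxcr1 and Cx3cr1 passed the level filter through Tconv libraries alone, so lower values in Treg were favoured by their choice. Ccr3 would not have passed it without Treg libraries, so higher values in Treg were favoured by its choice. Among all genes, 10.0% were higher and 8.06% lower in Treg WT. In KO the same 2 receptors were higher and the same 2 lower, beside 15.8% and 15.6% of all genes. In bulk samples, fewer cells of a type and less RNA per cell cannot be told apart, here and for the 10 receptors above.

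**Figure D4:**
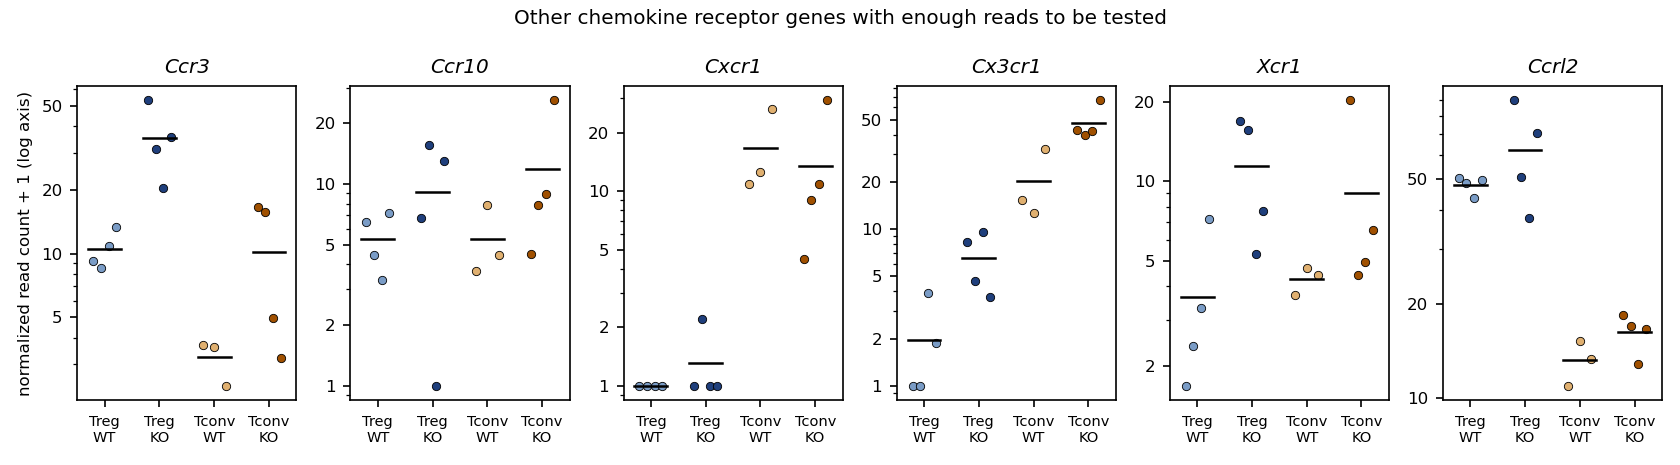
Normalized read count + 1 (log axis) of 6 further chemokine receptors that passed the level filter in each of the 15 libraries, with 1 point per library and a bar at the group mean. In WT, Cxcr1 and Cx3cr1 lie lower in Treg than in Tconv, and Ccrl2 and Ccr3 lie higher, while Ccr10 overlaps.

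Of 37 chemokine ligands, 30 were in the table and 7 passed the level filter. Of these 7, 1 rose in Treg KO, beside 10.4% of all genes tested, a share near that background. It was Xcl1, the ligand of Xcr1, where 4 libraries ran from 6.69 to 28.0 against 3.55 to 4.83 in Treg WT (1.63, adjusted p = 0.014). In Treg WT against Tconv WT, 2 of the 7 were lower, Ccl5 and Xcl1 (−1.63, adjusted p = 0.019), and 0 were higher. Among all genes, 8.06% were lower and 10.0% higher there. Ccl5 was lower in Treg in WT (44.1 to 74.5 against 637 to 1279, a difference of −3.77, adjusted p = 2.1e-04) and in KO (−3.32, adjusted p = 2.3e-04). Cxcl10, a ligand of Cxcr3, was higher in Treg KO than in Tconv KO (2.01, adjusted p = 0.0076). In Treg KO against Treg WT, Cxcl10 ran from 70.9 to 312 against 39.7 to 63.8, which passed with edgeR and DESeq2 and missed with limma (1.41, adjusted p = 0.06). In Tconv KO against Tconv WT, 0 of the 7 passed by limma, beside 0.681% of all genes. There were 2 lower at an unadjusted p under 0.05 (Ccl25 and Ccl27a), with 0 by edgeR and 0 by DESeq2.

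Downstream of the receptors, 30 signalling genes were listed, of which 28 were tested, and 5 rose (Gnai3, Pik3cg, Dock2, Cdc42 and Jak2) and 5 fell in Treg KO, beside 10.4% and 11.1% of all genes. Those that fell were the inhibitory G protein subunit Gnai2 (−0.35, adjusted p = 0.0022), the receptor kinase Grk6 (−0.55, adjusted p = 0.0063), the arrestin Arrb2 (−0.41, adjusted p = 5.3e-04), Arhgef1 (−0.72, adjusted p = 0.0077) and Coro1a (−0.58, adjusted p = 0.0083). In Treg WT against Tconv WT, 2 of the 28 were higher, the phospholipase Plcb3 (1.51, adjusted p = 9.0e-06) and the G protein subunit Gnaq (1.28, adjusted p = 0.016), and 5 were lower (Arrb2, Pik3r5, Elmo1, Grk6 and Dock2), beside 10.0% and 8.06% of all genes. In Treg KO against Tconv KO, 3 were higher (Plcb3, Gnaq and Arrb1) and 8 lower (Arrb2, Pik3r5, Grk6, Rap1b, Gnai2, Elmo1, Coro1a and Arhgef1), beside 15.8% and 15.6% of all genes. In Tconv KO, 0 of the 28 passed by limma, beside 0.681% of all genes. There were 4 at an unadjusted p under 0.05, 0 by edgeR and 2 by DESeq2 (Arrb2 lower and Pik3cg higher).

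Of 12 transcription factors of helper cell types and naive T cells, 1 rose and 2 fell in Treg KO, beside 10.4% and 11.1% of all genes, a share near that background. Rora, a factor of Th17-type and tissue Treg cells, rose (372 to 452 in Treg WT, 541 to 1251 in Treg KO, 1.07, adjusted p = 0.0061). Klf2, which is known to promote recirculation through lymphoid organs, fell there (767 to 1076 in Treg WT, 360 to 651 in Treg KO, −0.87, adjusted p = 0.002), and Bach2 fell too (−0.62, adjusted p = 0.033). In WT, 1 of the 12 was higher in Treg than in Tconv (Gata3) and 4 were lower (Tbx21, Klf2, Tcf7 and Lef1), beside 10.0% and 8.06% of all genes. In KO, 3 were higher (Gata3, Irf4 and Batf) and 5 lower (those 4 and Bach2), beside 15.8% and 15.6% of all genes. In Tconv KO, 0 of the 12 passed by limma, beside 0.681% of all genes. There was 1 (Rora, higher) at an unadjusted p under 0.05, with 0 by edgeR and 0 by DESeq2.

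As a description over all 15 libraries, the 3 genes whose log2 values ran most like each receptor were taken among 8597 genes, and no p is given since the libraries share cell types and genotypes. Ccr8 ran most like Zc3h12c, Cd74 and Nol4l (Pearson r of 0.98, 0.98 and 0.97). Ccr6 ran most like Klrg1 (0.97), Dennd5a and Il1rl1 (0.96 each), and Ccr4 most like Myo5a (0.95), Tmem154 and Plcb4 (0.93 each). Ccr7 ran most like Txk, Actn1 and Sgk3 (0.98 each), Cxcr6 most like Dennd4c (0.97), Cd4 and Gzmk (0.95 each), and Cxcr5 most like Cebpa (0.94), Lax1 and Bcl6 (0.93 each). The nearest gene to Ccr9 was Lmo4 (0.93), to Cxcr4 Gbp4 (0.92), to Cxcr3 Baiap3 (0.90) and to Ccr2 Cep57 (0.89).

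Marker lists of other cell types were summed beside the receptors. B cell markers summed to 77.9 to 112 in Treg WT, 129 to 187 in Treg KO, 9.49 to 12.4 in Tconv WT and 12.5 to 24.5 in Tconv KO, and Cd79b made up most of it in Treg. Ccr6 and Cxcr5 are also carried by B cells, and the part of these markers in their values was not tested. Myeloid markers summed to 4.31 to 38.7 and erythroid and platelet markers to 8.62 to 30.9 in every library. The Treg list in Tconv KO summed to 4646 in replicate 1, 2057 in replicate 2, 1983 in replicate 3 and 779 in replicate 4, against 1275 to 1484 in Tconv WT. Its largest member by group mean was Ikzf2, which ran from 366 to 3195 in Tconv KO and from 738 to 870 in Tconv WT. Il2ra ran from 55.9 to 69.5 in Tconv KO and from 44.3 to 64.8 in Tconv WT. Foxp3 ran from 18.9 to 69.5 against 14.4 to 20.6, and Ctla4 from 188 to 764 against 266 to 345. Ikzf4 ran from 46.7 to 145 against 48.1 to 62.2, and Tnfrsf4 from 92.3 to 439 against 160 to 179. The part of these genes in the receptor values was not tested.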

How the data were processed

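RNA was measured in 15 TruSeq libraries of sorted splenic T cells, per the labels' protocols. TopHat and the mm10 build are named in the submitters' processing notes; the sources used here give neither the counting tool, nor the annotation, nor any version. The authors' deposited table holds a normalized signal, that is, read counts divided by 1 size factor per library; dividing out the step of 1 read gave whole numbers for 100% of values (within 0.001). Symbols were matched to GENCODE vM21 for positions and lengths.

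Values were tested as log2(value + 1) with limma 3.58.1 in R 4.3.3 (4 group means over 15 libraries, empirical Bayes with trend, two-sided), on the 11314 genes that reached 10 in 3 or more libraries. Benjamini-Hochberg adjustment ran over these genes within each comparison (threshold 0.05). The 10 receptors each passed the filter. Fold changes are on the log2(value + 1) scale, which understates changes of low genes. edgeR 4.0.16 and DESeq2 1.42.0 on the recovered reads (2444 and 2779 genes changed in Treg KO, against 2431), other pseudocounts, filters and scalings, GC and length corrections, library weights and leaving out each library were alternatives. The script was tested on simulated data.

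The receptors are named whatever their values. Of the further receptors, ligands, signalling genes and transcription factors, those that passed and up to 4 with the smallest p per comparison are named. Genes most like a receptor were the 3 with the highest r among genes with a mean of at least 50. The receptors and lists were chosen with earlier results of these data known. Libraries were numbered in accession order. Some genes are not reported here.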

Additional observations from a re-analysis of the deposited data

Results flagged for a closer look

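In groups of 4 libraries, 48 sets of values over 16 receptors were checked for a library far from the other 3, by the gap to its nearest neighbour as a share of the range (Dixon's test at 95%). Chance flags about 1 group in 20, and 4 were found. Ccr9 was lowest in Tconv KO replicate 1, at 55.9 where the others lay between 66.1 and 67.0. Cxcr1 was highest in Treg KO replicate 2, at 1.21, which is 1 read, where the others had 0. Cx3cr1 was highest in Tconv KO replicate 4, at 65.6 where the others lay between 38.7 and 42.0. Xcr1 was highest in Tconv KO replicate 1, at 19.2 where the others lay between 3.42 and 5.56.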

How the results depend on the processing

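Over 50 values (10 receptors in 5 comparisons) and 11 planned settings and 1 chosen after seeing the data, other than leaving out a library, 560 of 585 kept their direction and their side of the threshold, 11 came to pass, 6 no longer passed and 8 changed sign. The cause was not tested. The number of receptors lower in Treg KO was 1 (Ccr7) in place of 0 with DESeq2, with library weights and without both first KO libraries, and 0 to 1 when each library was left out. The number higher in Tconv KO was 1 (Ccr4) in place of 0 with DESeq2 and with library weights, and 0 to 1 when each library was left out. The number lower in Treg than in Tconv of WT was 1 to 3 when each library was left out. Values that changed sign were those of Tconv KO against Tconv WT for Ccr7 (0.059 with weights, 0.17 without both first KO libraries), Cxcr3 (−0.23 without them) and Cxcr4 (0.046 with the length correction, 0.021 with weights), that of Treg KO against Tconv KO for Cxcr3 (0.064 with weights), and the interactions of Ccr6 (0.020) and Ccr8 (0.18) with a pseudocount of 8. With each library left out, values that changed sign in at least 1 fit ran in Tconv KO against WT from −0.18 to 0.17 for Ccr7, −0.23 to 0.43 for Cxcr3 and −0.11 to 0.068 for Cxcr4. They ran in Treg against Tconv of WT from −0.35 to 0.044 for Ccr2 and −0.044 to 0.16 for Cxcr5, and of KO from −0.26 to 0.12 for Ccr2, −0.49 to 0.17 for Cxcr3 and −0.70 to 0.037 for Cxcr5. The interactions ran from −0.12 to 0.28 for Ccr2, −0.010 to 0.29 for Ccr4, −0.36 to 0.26 for Ccr6, −0.59 to 0.22 for Ccr8, −0.10 to 0.36 for Ccr9 and −0.12 to 0.54 for Cxcr3.

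Over all genes, the number that changed in Tconv KO was 77, with 236 by DESeq2, 307 with library weights, 32 with a fit of the groups compared alone and 47 with the length correction. In Treg against Tconv it was 2046 in WT, with 3990 for the groups alone and 4330 with weights, and 3558 in KO, with 2042 for the groups alone. The interaction gave 17, with 88 by DESeq2, 56 with weights and 35 with the GC correction. Ccr9 was too low for the stricter filter on means. No paired analysis was possible because the labels do not say which Treg and Tconv libraries share an animal. Treg and Tconv alternate in the submitters' running numbers (483 to 490 in WT, 574 to 581 in KO), so neighbouring numbers may come from 1 animal, which was not tested. Ccr8 in Tconv rests on few reads, which limits its knockout comparison there.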
